A study of Mus musculus with 8 samples.

Results

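The comparison described here set mice labelled Ccl3-/- against C57BL/6 wild-type mice after both had been injected with the CCL3 protein, in olfactory mucosa, the lining of the nose that holds the olfactory neurons. Its members are the 4 arrays of the CCL3-injected mice, 2 for each genotype, chosen by their titles from the 8 arrays of the series. The other 4 arrays come from carrier-injected mice of both genotypes, again 2 each. All mice had both olfactory bulbs removed, which deprives the olfactory neurons of their target and is followed by their death and replacement. The labels give no age, sex, dose, route or time after surgery and injection, do not name the strain background of the Ccl3-/- mice, and do not say that replicates were separate animals. The p-values thus reflect array-to-array spread alone, and that spread may be technical.

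CCL3, also called MIP-1α, is a CC chemokine that macrophages and other leukocytes release and that binds the receptor CCR1. It draws monocytes and macrophages to injured tissue, and in the bone marrow it is known to restrain the division of blood stem cells. In the olfactory mucosa, macrophages clear dying neurons after the bulb is removed, and basal cells then divide and replace them. The title of the series asks about this recruitment. The comparison asks what still differs between the genotypes once the missing chemokine has been supplied to both.

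The deposited values are intensities, on a linear scale, with 1 value per array for every probe set. A probe set is a group of short probes for one transcript. Of 12422 probe sets other than controls, 8135 exceeded an intensity of 364.6 on at least 2 arrays and were tested, and these name 6173 genes. Differences are given as arrays labelled Ccl3-/- minus wild type on the scale of log2(intensity + 103), with the standard error (SE) of the fit, which understates the change of dim genes. In bulk tissue, fewer cells of a type and less RNA per cell cannot be told apart. The median intensity per array ran from 584.7 to 663.15. The ratio of the 3′ to the 5′ Gapdh control probe sets, a sign of RNA quality, was 0.933 to 1.31 on the CCL3 arrays, and reached 2.59 on carrier wild-type replicate 1.

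After CCL3, the genotypes differed little over the whole array. No probe set of 8135 (0%) passed an adjusted p of 0.05 in limma with Benjamini-Hochberg adjustment, and the lowest adjusted p was 0.332, for Med1. An unadjusted p under 0.05 was found for 121 probe sets (1.49%), 67 higher (0.824%) and 54 lower (0.664%) on the arrays labelled Ccl3-/-. These p-values rest on 1 spread for each probe set, shared by all 4 groups. Replicates lay farther apart after carrier, by a root mean square of 0.71 (wild type) and 0.57 (knockout) log2 units. After CCL3 it was 0.48 and 0.40. With only the CCL3 groups fitted in limma, 295 of the 8135 probe sets had an unadjusted p under 0.05. The genotype means differed by a root mean square of 0.30 log2 units, and the spread between replicates alone gives 0.31. After carrier, the same values were 0.50 and 0.45. Both Ccl3-/- arrays lay above both wild-type arrays for 1338 probe sets (16.4%) and below both for 1052 (12.9%). With a difference of at least 2-fold as well, 41 probe sets were higher (0.504%) and 28 lower (0.344%). With 1 CCL3 array left out the 2-fold counts rose, but the rule is then looser, since 1 array stands against 2. Of the tested probe sets, 193 exceeded the filter only on arrays of 1 genotype, including 9 of the 41 higher and 3 of the 28 lower ones: these were admitted by the group in which they are bright. For 7 of the 193, the CCL3 arrays of that genotype alone admitted them. "Higher" and "lower" below describe these arrays and do not mean that a gene passed the adjusted test.

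**Figure D1:**
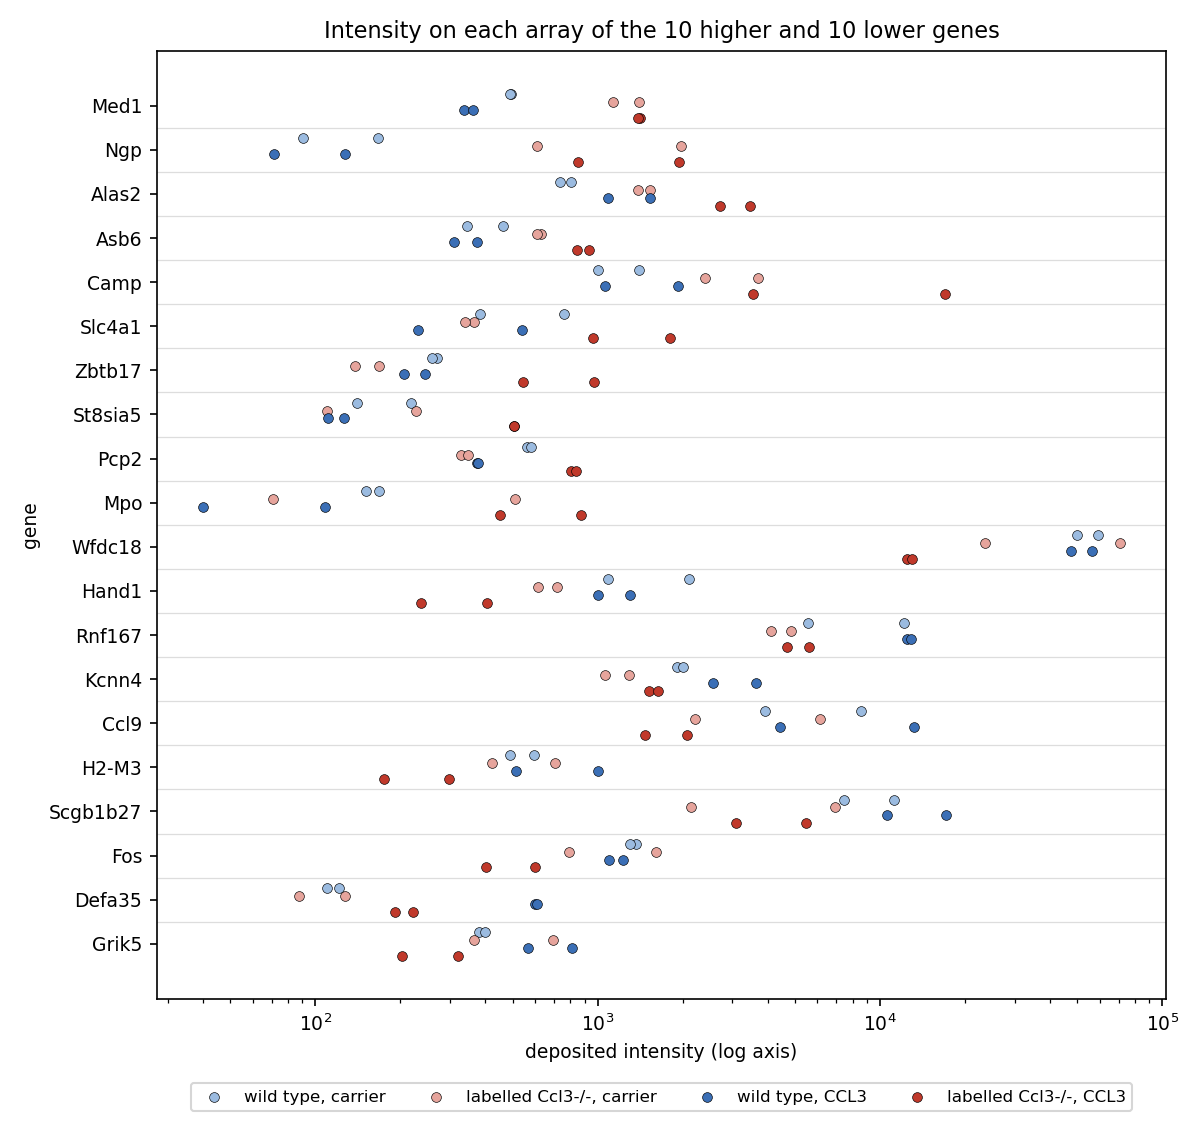
Deposited intensity (horizontal, log axis) of the 10 higher and 10 lower genes with the smallest p among those whose CCL3 arrays did not overlap; each point is 1 array and colours mark the 4 groups. Dark red and dark blue points do not overlap by the choice of genes; the pale carrier points overlap for some of them, such as Mpo, Wfdc18 and Ccl9.

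The ligand itself went against its label. The Ccl3 probe set read 223.1 and 386.5 on the wild-type arrays and 727.3 and 729.5 on the arrays labelled Ccl3-/-, so both knockout arrays were brighter by 1.06 ± 0.35 (SE). The carrier arrays, which share no sample with these, showed the same order, with a difference of 1.43. No source used here says where the probes lie relative to the deleted part of the gene, so this signal does not check the labels. Ccl4, a neighbouring CC chemokine gene, was too dim to be tested, at 48.1 and 92.4 in wild type and 115.3 and 143.1 in the knockout. Ccr1, the receptor shared by CCL3 and CCL9, was also untested, at 299.5 and 224.0 against 139.2 and 190.8. Because of the Ccl3 signal, directions below refer to the arrays as labelled.

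Ccl9, another CC chemokine and ligand of CCR1, was lower. It read 13238.6 and 4415.5 in wild type and 2071.7 and 1473.7 in the knockout, a difference of -2.07 ± 0.59. The wild-type arrays differed severalfold between themselves, yet both stood above both knockout arrays. After carrier, Ccl9 overlapped between the genotypes, with a difference of -0.64. There it read 8531.7 and 3910.6 in wild type and 6109.2 and 2204.7 in the knockout. In each of the 4 groups replicate 1 read above replicate 2, though the labels do not say that these numbers pair the arrays. With the replicate number as a block, Ccl9 had an adjusted p in limma of 0.1949 after CCL3. Among the 7 tested CC chemokines and receptors, 1 was higher by at least 2-fold without overlap (Ccl3) and 1 lower (Ccl9). Over all tested probe sets, the shares were 0.504% and 0.344%. The list median was 0.04, against 0.02 for all tested probe sets. The monocyte attractant Ccl2, its receptor Ccr2 and the chemokines Ccl6, Ccl8 and Ccl22 differed by -0.39 to 0.07, with overlapping arrays.

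Ccl9 and Wfdc18, which had the smallest p of the lower genes, are both close to Ccl3 on chromosome 11. Within 20 protein-coding genes on either side of Ccl3, a window set after the values were seen, 12 probe sets of 11 genes were tested. Ccl9 lies 2 genes to one side and Wfdc18 lies 3 genes to the other. With Ccl3, they made 3 of the 12 probe sets (25.0%) that differed at least 2-fold without overlap, against 0.848% of all tested probe sets. The window is centred on Ccl3 and was set with Ccl9 and Wfdc18 already seen, so this share is a description only. The other 9 probe sets ran from -0.12 to 0.88. Wfdc18 encodes a small secreted protein of the four-disulfide-core family of proteinase inhibitors. It read 56245.5 and 47530.0 in wild type and 12478.8 and 12962.9 in the knockout, a difference of -2.01 ± 0.42. Both knockout arrays were far below both wild-type arrays, while after carrier they lay on either side, at 23581.3 and 71077.8 against 59337.0 and 49793.6. Wfdc18 passed only when the distance between these 2 carrier knockout arrays did not enter the spread. Its adjusted p in limma was 0.0198 when only the CCL3 groups were fitted. It also passed without carrier knockout replicate 1 or 2, but not when a carrier wild-type array was left out. Wfdc21, of the same family and 4 genes from Ccl3, was higher, by 0.88 ± 0.36. Ccl6, directly next to Ccl3, differed by 0.04 ± 0.32. The labels do not say from which strain the chromosome around the Ccl3-/- allele came.

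**Figure D2:**
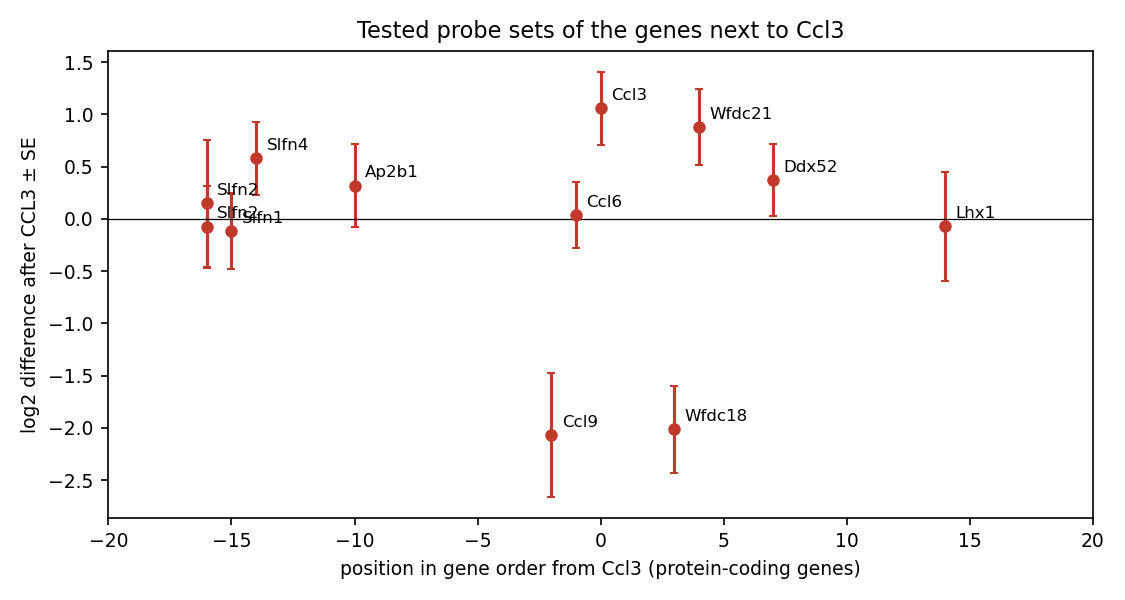
Log2 difference after CCL3, arrays labelled Ccl3-/- minus wild type, with its SE (vertical), for each tested probe set near Ccl3, by position in the order of protein-coding genes (horizontal, 0 is Ccl3). Ccl9 and Wfdc18 lie near -2, Ccl3 and Wfdc21 near 1, and the rest between -0.12 and 0.58.

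Genes of red blood cells were higher on the arrays labelled Ccl3-/-. Of 15 tested, 14 lay above 0, where 52.7% of all tested probe sets did, and 7 did so without overlap (16.4% of all). The list median was 0.52, against 0.02 for all tested probe sets. It was 0.33 without wild-type replicate 1, 0.20 without knockout replicate 1 and 0.25 with a stricter filter on dim signals. The summed signal of the 21 genes on the array was 99140.4 and 100542.5 in wild type and 136741.9 and 130121.0 in the knockout, without overlap. Bright genes weigh most in such a sum, and the globin gene Hba-a1, given below, is among them. On the carrier arrays the sum was 81349.7 to 89063.4, with the genotypes overlapping, and the list median there was -0.05. None of these genes passed the adjusted test.

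Membrane proteins of the red cell showed the widest differences. Slc4a1, the anion exchanger band 3, read 537.4 and 231.7 in wild type and 1806.9 and 958.9 in the knockout, a difference of 1.62 ± 0.43. Rhd, the Rhesus blood group protein, read 59.5 and 189.4 against 650.6 and 502.5, a difference of 1.63 ± 0.51. Rhag, its partner in the membrane, read 302.1 and 346.9 against 1005.8 and 533.3, a difference of 0.98 ± 0.34. In each of the 3 genes both knockout arrays were above both wild-type arrays, and after carrier each lay below 0, at -0.51, -0.94 and -0.45. The globins, which make haemoglobin, differed less but replicated closely. Hba-a1 read 42590.4 and 43494.5 against 59227.7 and 64718.9, a difference of 0.52 ± 0.27, and Hbb-b2 read 13626.6 and 12220.3 against 20838.6 and 21075.9, a difference of 0.70 ± 0.25. The globin genes have near-identical copies that these probes may not separate. The transcription factors that drive red cell formation overlapped: Klf1 and Nfe2 were high on knockout replicate 1 alone, at 687.1 and 684.4, with knockout replicate 2 at 313.3 and 315.5, inside the wild-type range.

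Alas2, the red-cell form of the first enzyme of haem synthesis, had the third smallest p of the higher genes. It read 1533.5 and 1089.5 in wild type and 2704.2 and 3470.3 in the knockout, a difference of 1.18 ± 0.26. After carrier it was higher too, by 0.84. Of the 9 tested genes of haem synthesis and handling, 7 lay above 0 and 3 did so without overlap (16.4% of all). These 3 were Alas2, Ppox at 0.60 ± 0.30, and Abcb10 at 0.57 ± 0.31. The list median was 0.07, against 0.02 for all tested probe sets. Hmox1, which breaks haem down, differed by -0.24 ± 0.29 with overlapping arrays.

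GATA factors are the regulators that switch on red cell genes. The sequences upstream of 4 members are shown to let the letters be set beside the values: each is the 250 bases before the transcription start in the RefSeq table of GRCm38.p6, on the plus strand, with a match to AGATAA or TGATAA on either strand in capitals. Alas2 is at chrX:150547167-150547416, Rhd at chr4:134864286-134864535, Rhag at chr17:40810899-40811148 and Hba-a1 at chr11:32283422-32283671.
Alas2: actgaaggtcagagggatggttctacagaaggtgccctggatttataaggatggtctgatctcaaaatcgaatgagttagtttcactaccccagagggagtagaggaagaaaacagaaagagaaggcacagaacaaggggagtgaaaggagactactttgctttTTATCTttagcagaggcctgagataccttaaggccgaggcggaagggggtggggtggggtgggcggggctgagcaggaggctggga
Rhd: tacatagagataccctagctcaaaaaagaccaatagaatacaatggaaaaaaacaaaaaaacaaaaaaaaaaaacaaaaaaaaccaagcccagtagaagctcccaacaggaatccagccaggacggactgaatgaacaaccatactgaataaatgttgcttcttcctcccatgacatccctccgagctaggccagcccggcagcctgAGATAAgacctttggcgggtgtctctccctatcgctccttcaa
Rhag: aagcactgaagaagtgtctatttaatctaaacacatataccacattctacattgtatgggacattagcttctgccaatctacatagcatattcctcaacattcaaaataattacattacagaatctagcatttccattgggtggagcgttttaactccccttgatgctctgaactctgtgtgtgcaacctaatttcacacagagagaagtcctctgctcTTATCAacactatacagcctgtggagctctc
Hba-a1: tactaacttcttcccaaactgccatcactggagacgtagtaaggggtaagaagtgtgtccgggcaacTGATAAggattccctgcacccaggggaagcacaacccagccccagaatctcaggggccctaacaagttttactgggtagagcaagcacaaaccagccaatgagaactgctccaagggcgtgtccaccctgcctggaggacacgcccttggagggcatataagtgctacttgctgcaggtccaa
The table held 10 of the 15 red cell genes, of which 4 (40%) had a match: these except Alas2, with Klf1. Of the 9 haem genes it held 8, of which 3 (37.5%) had one: Alas2, Cpox and Uros. A gene can have several windows: over all 27025 genes in the table, 18.8% had a match in any window. By window, a match stood in 4 of 11 (36.4%) for the red cell genes, 3 of 11 (27.3%) for the haem genes and 16.6% of all 32851. A match describes the letters and is not a site of binding. The 4 genes shown all have a match, and no red cell or haem gene without one is shown. Slc4a1 is not shown because the table has no entry for it.

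Granule genes of neutrophil precursors were higher in part. These genes are read in the bone marrow while granules form, and their messages fade as neutrophils mature. Of 11 tested, 7 lay above 0, 5 without overlap (16.4% of all) and 4 of them by at least 2-fold (0.504% of all). Of those 4, Ngp and Mpo exceeded the filter only on knockout arrays, so the count is a description only. Ngp, a granule protein, read 127.2 and 71.5 in wild type and 1947.1 and 848.7 in the knockout, a difference of 2.80 ± 0.53. Camp, the cathelicidin antimicrobial peptide, read 1930.5 and 1059.7 against 17005.3 and 3545.6, a difference of 2.36 ± 0.60. The knockout arrays differed severalfold from each other for Camp, and both were above wild type. Mpo, myeloperoxidase, read 108.6 and 39.9 against 870.8 and 450.3, a difference of 2.08 ± 0.59, while its other, untested probe set overlapped. Prtn3 and Elane, 2 granule proteases, were higher by 1.33 ± 0.51 and 0.62 ± 0.33.

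Ngp and Camp were higher in the knockout after carrier too, by 2.41 and 1.26, while Mpo, Prtn3 and Elane differed there by 0.31, -0.09 and -0.08. Over the whole list the carrier median was 0.42, with 5 of 11 higher without overlap (15.6% of all). Ltf, Lcn2 and Chil1, of which Ltf and Lcn2 are also made by nasal glands, overlapped, and Pglyrp1 was lower by -0.46 ± 0.28. The list median was 0.33. It was 0.68 without wild-type replicate 1, 0.0017 without wild-type replicate 2 and 0.12 with the stricter filter. Of 10 genes of mature neutrophils, 5 lay above 0 and the median was 0.02. S100a8, which binds calcium and fills the neutrophil cytosol, read 2217.2 and 2076.9 against 8792.5 and 4210.8, a difference of 1.46 ± 0.68. Its partner S100a9 overlapped, at 2276.7 and 1112.6 against 4233.7 and 1698.6.

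Markers of bone and cartilage were also higher after CCL3. Of 12 tested, 8 lay above 0 and 5 did so without overlap (16.4% of all), and the median was 0.31. The summed signal of the 20 genes on the array was 12761.2 and 14820.5 in wild type and 18530.8 and 15003.2 in the knockout. The carrier arrays gave a median of 0.35 and sums of 15891.1 and 15986.2 against 23368.2 and 22681.6, without overlap, where the red cell sums overlapped. Acan, a cartilage proteoglycan, had the widest difference of this list, at 709.8 and 818.8 against 2559.7 and 1177.2, or 1.09 ± 0.64. The osteoclast and bone-cell genes Acp5 and Alpl were higher by 0.47 ± 0.34 and 0.39 ± 0.26. None of the 12 had an unadjusted p under 0.05. The part of bone, marrow or blood left in the tissue in the red cell and granule values was not tested.

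**Figure D3:**
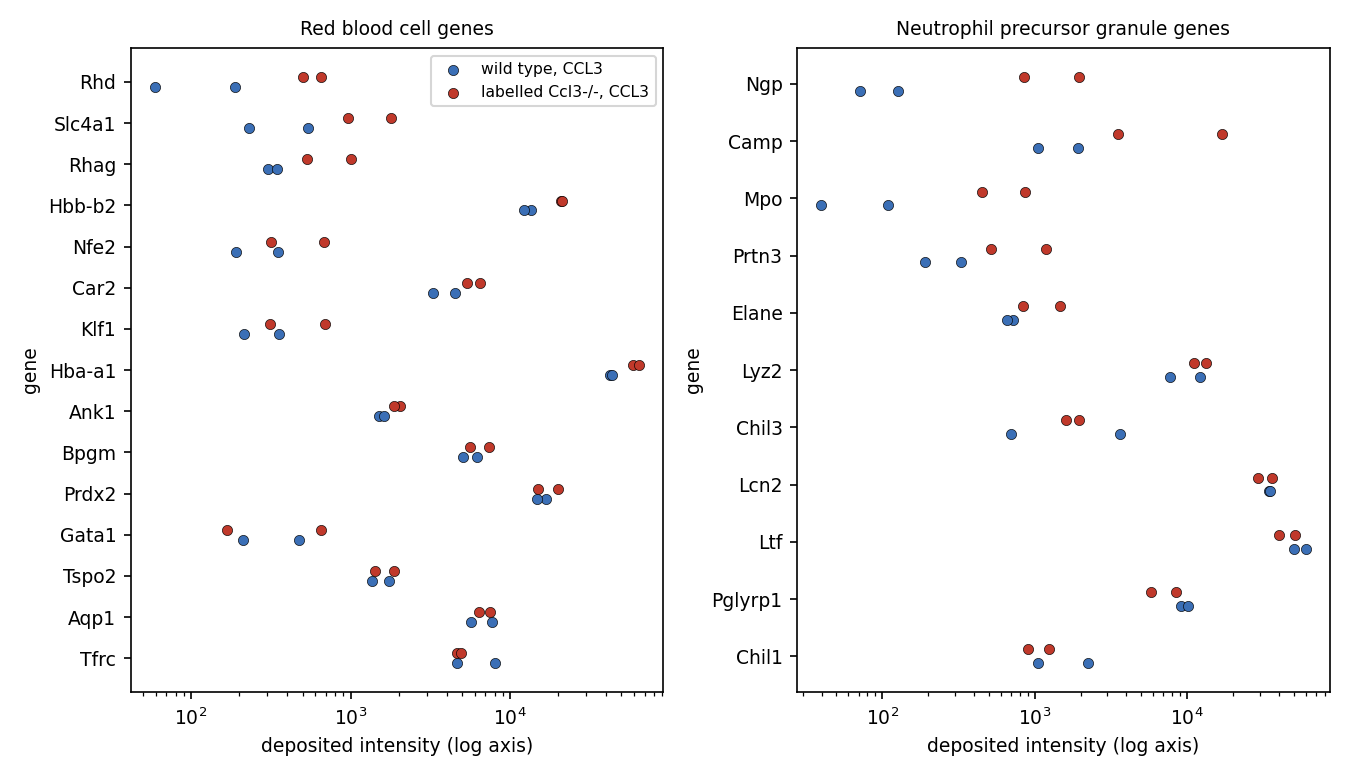
Deposited intensity (horizontal, log axis) of each tested red blood cell gene (left) and neutrophil precursor granule gene (right) on the 4 CCL3 arrays; each point is 1 array, red for arrays labelled Ccl3-/- and blue for wild type. Red points lie right of blue ones for 7 of 15 red cell genes, Rhd and Slc4a1 the widest, and for 5 of 11 granule genes, from Ngp to Elane.

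Macrophage genes, the subject of the series, showed no common direction. Of 25 tested, 13 lay above 0 and 12 below, 4 and 2 of them without overlap (16.4% and 12.9% of all), and the median was 0.01. Cd68, a lysosomal marker of macrophages, read 2241.2 and 2896.3 in wild type and 2070.2 and 2403.9 in the knockout, a difference of -0.18 ± 0.34. Adgre1, which encodes F4/80, read 393.3 and 110.5 against 190.6 and 465.0, or 0.33 ± 0.56. Csf1r, the receptor for macrophage growth factor, differed by -0.16 ± 0.27 and, on its other probe set, by 0.11 ± 0.37. In all of these the arrays overlapped. Spi1, the transcription factor PU.1, had the smallest p of the list, at 391.8 and 392.7 against 657.8 and 532.1, or 0.49 ± 0.29. Both probe sets of the scavenger receptor Msr1 were too dim to be tested. Lymphocyte, MHC class II and interferon response genes had medians of 0.00, -0.05 and 0.02.

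Secretory products of the nasal glands were mostly lower. Of 20 tested, 17 lay below 0, 5 without overlap (12.9% of all) and 2 by at least 2-fold (0.344% of all), which were Wfdc18 and Dmbt1. The list median was -0.28, against 0.02 for all tested probe sets, and -0.43 without wild-type replicate 1. After carrier it was 0.40. Muc5ac, a mucin of goblet cells, read 520.3 and 419.2 in wild type and 159.0 and 220.0 in the knockout, a difference of -0.97 ± 0.40. Car6, a secreted carbonic anhydrase, read 8630.8 and 10086.6 against 5134.7 and 6392.9, a difference of -0.69 ± 0.31. Dmbt1, a mucosal scavenger protein, read 28745.2 and 46241.6 against 21964.1 and 5102.0, and its SE of 1.47 was nearly as wide as its difference of -1.77. Outside the list, Scgb1b27, an androgen-binding secretoglobin, read 17109.1 and 10609.8 against 5469.3 and 3078.2, a difference of -1.69 ± 0.51. The summed gland signal was 453147.8 and 486151.2 in wild type and 398772.1 and 354764.1 in the knockout, and ran from 351846.8 to 514547.7 on the carrier arrays. Bright genes weigh most in such a sum, and Wfdc18 and Dmbt1 are among them. The part of how much gland each dissection held was not tested.

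Immediate early genes, which cells switch on within minutes of a stimulus, were mostly lower. Of 22 tested, 18 lay below 0, 8 without overlap (12.9% of all), and the median was -0.15. With 1 array left out, the median ran from -0.34 without knockout replicate 2 to -0.061 without wild-type replicate 2, and was -0.068 without knockout replicate 1 and -0.24 without wild-type replicate 1. Fos, a subunit of the AP-1 transcription factor, read 1092.6 and 1230.1 in wild type and 402.8 and 599.8 in the knockout, a difference of -1.08 ± 0.33. Its second, untested probe set overlapped. Fosb, Egr1 and Ier2, of the same response, differed by -0.71, -0.69 and -0.69, and the arrays of each did not overlap: Egr1 read 1315.5 and 966.6 against 554.5 and 781.6. Jund, another AP-1 subunit, lay the other way, at 0.37 ± 0.30. After carrier the list median was 0.11.

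In the olfactory epithelium, neuron genes had medians near 0 and no common direction. Omp, the marker of mature olfactory neurons, read 12511.5 and 14771.2 in wild type and 16002.0 and 19808.4 in the knockout, a difference of 0.39 ± 0.52. Its 2 knockout arrays were above wild type without passing the test, while on the carrier arrays it ran from 4251.1 to 21778.7. Gap43, a marker of immature neurons, read 5618.2 and 3823.4 against 5759.8 and 6442.8, again apart but without passing, at 0.39 ± 0.43. Of 15 mature neuron genes 9 lay above 0, with a median of 0.03, and without overlap 4 were higher and 1 lower (16.4% and 12.9% of all). Of 27 neuronal precursor genes 15 lay above 0, with a median of 0.05. Without overlap, 4 of them were higher and 7 lower (16.4% and 12.9% of all). Of 12 genes of horizontal basal cells, the reserve stem cells of the epithelium, 10 lay below 0 and 2 did so without overlap (12.9% of all). Their median of -0.23 was 0.019 without knockout replicate 1. Endothelial genes were below 0 in 11 of 14, 6 without overlap (12.9% of all), with a median of -0.20. Cell cycle genes had a median of 0.05 over 39.

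**Figure D4:**
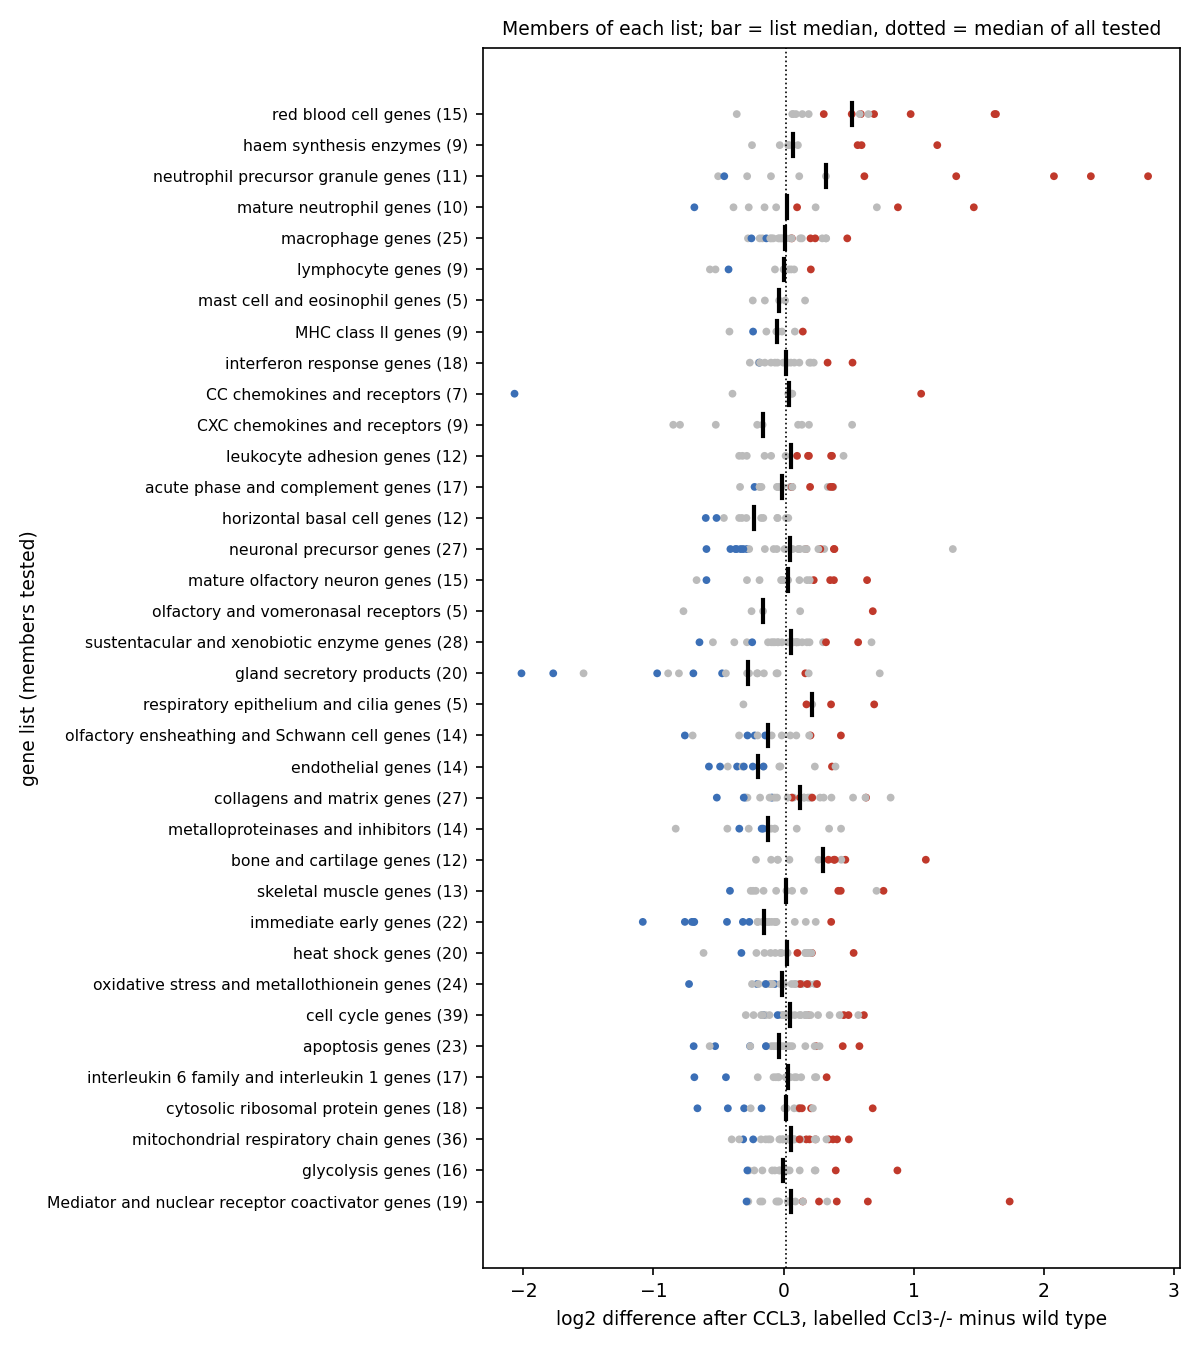
Log2 difference after CCL3, arrays labelled Ccl3-/- minus wild type (horizontal), of the tested members of each list with at least 5 of them (rows, number tested in brackets); points are genes, red or blue where the 4 arrays did not overlap and grey where they did, the bar is the list median and the dotted line the median of all tested probe sets. The median of red blood cell genes is farthest to the right, at 0.52, and that of gland products farthest to the left, at -0.28.

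Other genes stood out singly. Med1, a subunit of the Mediator complex that nuclear receptors bind, had the smallest p of the comparison. It read 335.8 and 361.0 in wild type and 1418.3 and 1384.8 in the knockout, a difference of 1.74 ± 0.25. The replicates of each genotype lay close together, and after carrier Med1 was higher too, at 493.3 and 487.8 against 1133.2 and 1404.7. The other Mediator and coactivator genes had no common shift: over 19 tested with Med1, the median was 0.06. Asb6, Zbtb17 (a zinc finger factor that partners with MYC), St8sia5 (a sialyltransferase) and Pcp2 were higher by 1.16, 1.35, 1.46 and 0.95, but the second Pcp2 probe set differed by -0.01. Zbtb17 and St8sia5 exceeded the filter only on the CCL3 knockout arrays, where they are high.

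Lower genes outside these groups began with Hand1, a transcription factor of the heart and placenta. It read 1006.5 and 1297.6 in wild type and 236.4 and 405.7 in the knockout, a difference of -1.58 ± 0.35, and was lower after carrier by -1.08. The second, untested Hand1 probe set overlapped after CCL3, at 188.9 and 260.3 against 46.5 and 237.8. Rnf167, a ubiquitin ligase, read 12437.3 and 12858.3 against 5616.3 and 4684.4, or -1.28 ± 0.34. Kcnn4, a calcium-activated potassium channel, was lower by -0.91 ± 0.26 and after carrier by -0.70. H2-M3, which presents bacterial peptides, was lower by -1.31 ± 0.38, and Defa35, a defensin, by -1.19 ± 0.38. Defa35 exceeded the filter only on the wild-type arrays after CCL3, at 597.9 and 607.7, and ran from 87.8 to 126.9 on the 4 carrier arrays. H2-M3 had a second, untested probe set that lay the other way without overlap, at 122.4 and 209.0 against 248.8 and 289.5. Grik5, a kainate receptor subunit, was lower by -1.12 ± 0.36 on 1 probe set and higher by 0.31 ± 0.27 on the other.

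The genotype difference after CCL3 was then set against that after carrier. The 2 comparisons share no arrays, and across the 8135 tested probe sets their differences had a Pearson correlation of 0.05, given as a description since probe sets are not replicates. Of the 41 probe sets higher by 2-fold without overlap after CCL3, 22 (53.7%) were above 0 after carrier, where 48% of all were. Of the 28 lower ones, 19 (67.9%) were below 0, as were 52% of all. For 5 probe sets the 2-fold rule was met upward after both injections, and for 6 downward. For 2 it was met upward after CCL3 and downward after carrier, and for 0 the other way. After carrier alone that rule was met upward by 2.45% and downward by 1.84% of all, and arrays lay apart without overlap upward for 15.6% and downward for 22.9%. No probe set passed the adjusted test after carrier either (0%), with 931 (11.4%) at an unadjusted p under 0.05, 410 higher (5.04%) and 521 lower (6.4%). The spread shared by all groups set this count too, although carrier replicates lay farther apart, so 931 and the 121 after CCL3 are not directly comparable. Leaving out carrier wild-type replicate 2 raised both the adjusted and the unadjusted count after carrier. Leaving out carrier wild-type replicate 1 did not raise the adjusted count. Without replicate 2, replicate 1 stands alone in its group. That array had the highest Gapdh ratio, 2.59. It also had the widest root mean square distance from the mean of all arrays, 0.52 log2 units. The interaction, which tests the difference between both genotype differences, passed an adjusted p of 0.05 in limma for none of 8135 (0%). Its lowest adjusted p was 0.908, with 411 (5.05%) at an unadjusted p under 0.05, 259 positive (3.18%) and 152 negative (1.87%).

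In all 10 genes named for the smallest interaction p, the genotype difference was wider after carrier than after CCL3. Pip, a secreted gland protein, read 1244.7 and 3355.0 against 676.7 and 1643.6 after CCL3, but 582.4 and 842.3 against 3662.1 and 5749.7 after carrier, an interaction of -3.43. Kat2a, a histone acetyltransferase, was higher after CCL3 by 1.32 and lower after carrier by -1.71. H2-Ab1, an MHC class II gene, and albumin (Alb) differed by 0.09 and 0.38 after CCL3, and by -1.41 and -2.04 after carrier. Carrier wild-type replicate 1, with the high Gapdh ratio, enters every one of these interactions, and its part in them was not tested.

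**Figure D5:**
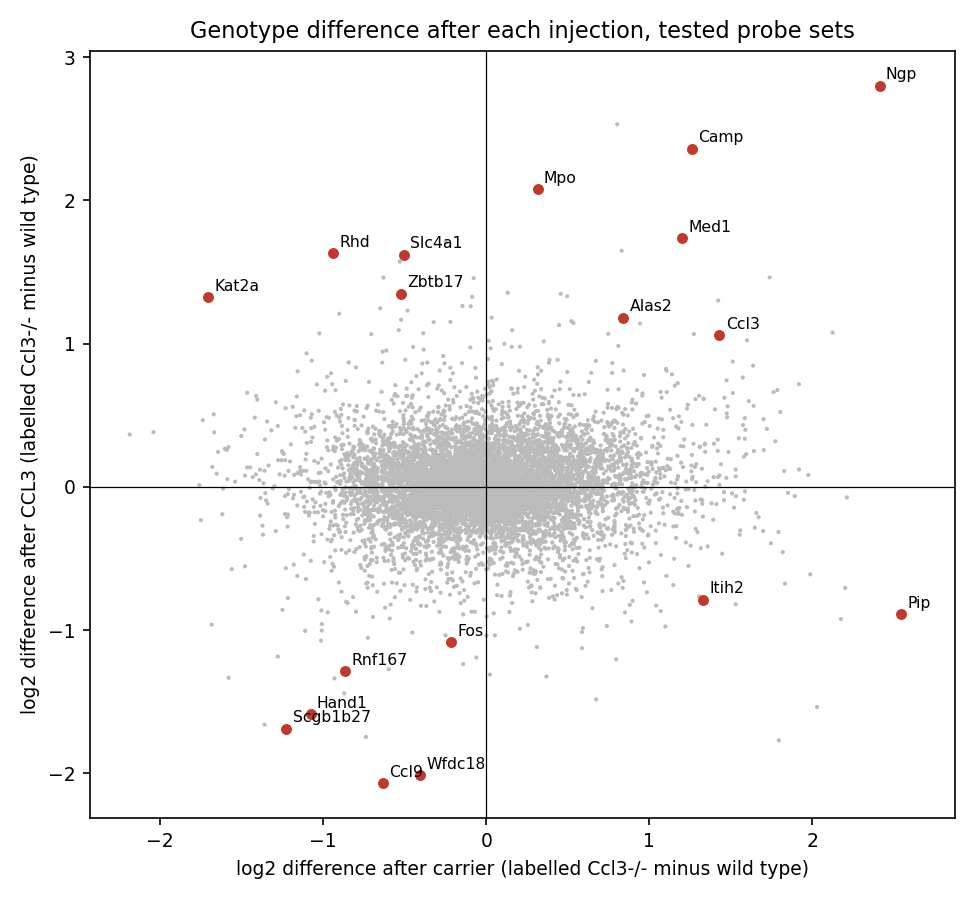
Log2 difference of arrays labelled Ccl3-/- minus wild type after carrier (horizontal) and after CCL3 (vertical) for each of 8135 tested probe sets (grey), with named genes in red. Ngp, Camp, Med1, Alas2 and Ccl3 are above 0 on both axes, Hand1, Scgb1b27 and Rnf167 below 0 on both, and Rhd, Slc4a1, Zbtb17 and Kat2a lie at the upper left.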

How the data were processed

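Total RNA of mouse olfactory mucosa was hybridised to 8 single-colour arrays, 2 in each of 4 groups taken from the sample titles. The authors deposited linear intensity values, 1 for each probe set on each array, and no source used here names the software or scaling. Their means after trimming 2% at each end were 1500.71 to 1500.83, so the arrays had been brought to a common level. No further normalization was applied. Depth does not apply to arrays, whose number limits the precision. Of 12488 probe sets, 66 controls were left out. Of the rest, the platform annotation gave 10833 a single gene symbol, 396 several and 1193 none. Symbols were updated through gene IDs, with 16 kept unmatched.

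Values were log2(intensity + 103), the 20th percentile, and probe sets with at least 2 arrays over the 40th percentile were tested. limma 3.58.1 (R 4.3.3) fitted all 4 groups together, with 4 residual degrees of freedom, an intensity trend and Benjamini-Hochberg adjustment over 8135 probe sets. The contrasts were genotype after CCL3, genotype after carrier and their interaction. The method was tested on simulated data. A list member is represented by its brightest probe set. Genes were named by rule: the 10 higher and 10 lower with the smallest p among those with non-overlapping arrays, up to 4 of each list, 5 up and 5 down for the interaction, and fixed macrophage, neuron and chemokine genes. Ank1, Ccl6, Ccl8, Ccr2, Chil1, Cpox, Dmbt1, Elane, Hba-a1, Jund, Klf1, Lcn2, Ltf, Nfe2, Pglyrp1, S100a9 and Uros fall outside that rule and were chosen after their values were seen. The arrays compared and the lists were chosen with earlier results of these data known. Alternatives were other normalizations, pseudocounts, filters, folds and spread estimates, a replicate block, only the CCL3 groups, and each array left out. Figures were drawn with matplotlib 3.10.9.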

Additional observations from a re-analysis of the deposited data

Results flagged for a closer look

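The named genes and the red cell, granule, gland and immediate early lists were searched for genotype differences that changed side between the injections. In 13 genes, both arrays labelled Ccl3-/- lay on one side of both wild-type arrays after CCL3 and on the other side after carrier. Over all tested probe sets this was so for 408 of 8135 (5.02%), and 483 (5.94%) lay on the same side after both. Some of the 13 had been named for a small interaction p or for lying apart after CCL3. Their number is thus a description only and is not comparable with that share. The interaction of each gene, as the genotype difference after CCL3 minus that after carrier in log2, was tested in limma, and none passed, with a lowest adjusted p of 0.908. Red cell genes were among the positive ones: Rhd at 2.57, Slc4a1 at 2.13, Rhag at 1.43 and Ank1, a membrane skeleton protein, at 0.63. The other positive ones were Kat2a at 3.03, Zbtb17 at 1.87, Arhgef2 at 1.79 and Pcp2 at 1.56. The negative ones were B3galt2 at -2.28, Itih2 at -2.12, the decoy interleukin 1 receptor Il1r2 at -1.83, Muc5ac at -1.71 and Egr1 at -1.30.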

How the results depend on the processing

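For genotype after CCL3, limma called nothing at an adjusted p of 0.05, except Wfdc18 alone (a count of 1) when only the CCL3 groups were fitted and without carrier knockout replicate 1 or 2; leaving out single arrays gave 0 to 1. With 1 array left out, the 2-fold counts ran from 41 to 134 higher and from 28 to 93 lower, highest without wild-type replicate 1 and 2. Without a CCL3 array the rule is looser, since 1 array then stands against 2. With all arrays, the 2-fold counts were 165 and 149 at a fold of 1.5 and 70 and 48 with a pseudocount of 16. They were 10 and 10 with the 40th percentile as the pseudocount, and 16 and 11 with a filter at the 60th percentile. A filter on the mean left 27 higher. A filter also changes how many probe sets are tested, from 8135 in the main fit to all 12422 with no filter. Counts under different filters are thus not parts of the same total. The 121 probe sets under an unadjusted p of 0.05 became 248 with no filter, 55 with the 60th percentile filter, 295 with only the CCL3 groups, and 71 (without knockout replicate 1) to 195 (without carrier wild-type replicate 2) with 1 array left out. For the interaction, 411 became 648 with no filter, 246 with the 60th percentile filter, and 147 (without knockout replicate 1) to 1040 (without carrier wild-type replicate 2), while the adjusted count stayed 0. For genotype after carrier, the adjusted count was 0 to 110 and the unadjusted count 646 to 1637 when arrays were left out, both highest without carrier wild-type replicate 2. List medians ran, with 1 array left out, from 0.20 to 0.69 for red cell genes, 0.0017 to 0.68 for granule genes, -0.43 to -0.18 for gland products, -0.34 to -0.061 for immediate early genes and -0.44 to 0.019 for horizontal basal cells; the 60th percentile filter gave 0.25 for red cell and 0.12 for granule genes. Adgre1 turned to -0.28 without wild-type replicate 2 and -0.15 without knockout replicate 2 (range to 0.94), Csf1r to 0.043 without knockout replicate 2 (range from -0.37), and its other probe set to -0.12 without knockout replicate 1 (range to 0.35). The cause was not tested.

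The labels do not say whether replicate numbers pair the arrays. Deviations of same-numbered arrays had correlations from -0.159 to 0.18, which cannot settle this with 2 arrays a group. With the number as a replicate block, the counts at an adjusted p of 0.05 in limma were 0 for genotype after CCL3, 1 after carrier and 0 for the interaction, and those at an unadjusted p were 131, 957 and 432.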
